A study of Mus musculus with 2 samples.

Results

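Aminoacyl-tRNA synthetases attach each amino acid to its matching tRNA. The enzymes followed here were 36 mouse genes, 20 for synthetases of the cytosol and 16 for mitochondrial synthetases, whose symbols end in 2. They were selected by gene symbol and compartment, with earlier results of these data known. All 36 were found among the 27790 genes or transcripts on the arrays, and each was read from the brightest probe of its gene. The RNA came from 2 mouse melanoma cell lines that both descend from B16F1 cells selected for a GFP plasmid. B16F1-GFP-M is the maternal line. B16F1-GFP-D is a single clone grown from GFP+ cells that were sorted from pooled organs of tumour-free C57BL6JRj mice, control and immunised, long after a challenge with B16F1-GFP cells. Both lines were cultured without treatment in the same serum-containing medium, and the comparison addresses what separates the dormant DMC-derived line from its maternal line, where DMC stands for disseminated melanoma cell.

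Both RNAs were hybridised to 2 Agilent 2-colour arrays on 1 slide with exchanged dyes, array 1 with B16F1-GFP-D in Cy3 and array 2 with B16F1-GFP-D in Cy5. Each line therefore had 1 replicate, no test between the lines was possible, and the standard deviation (SD) between the arrays covers dye and hybridisation effects and no variation between cultures. Values are log2 ratios of B16F1-GFP-D relative to B16F1-GFP-M, so that negative values stand for lower transcript in B16F1-GFP-D. A gene counted as detected when its probe was well above background on both arrays for B16F1-GFP-D, for B16F1-GFP-M or for both, which held for 12540 genes. It was called when each array put it 2-fold or more apart between the lines and in a single direction, which is a criterion of size rather than a test. Across the detected genes the pooled SD between the arrays was 0.15. All 7 melanocyte markers, 2 of 6 fibroblast markers, 1 of 5 leukocyte markers and 0 of 4 endothelial markers were detected. The detected fibroblast and leukocyte markers were dim, with mean log2 intensities of 7.08 for *Col1a2*, 6.47 for *Col1a1* and 6.55 for *Cd3e*. *Col1a1* and *Cd3e* met the rule for detection in B16F1-GFP-D only. Their mean log2 ratios were 0.40 and -0.0071, and the signs of *Cd3e* differed between the arrays. The dimmest melanocyte marker, *Tyr*, had 8.44. In such RNA of whole cultures, fewer cells with a transcript and less of it per cell cannot be told apart.

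As background, cytosolic synthetases supply charged tRNA to the ribosomes that translate nuclear genes, and several of them are held together in a multi-synthetase complex. Mitochondrial synthetases are also encoded in the nucleus, but are imported to charge the tRNAs that read the few messages of mitochondrial DNA. When charged tRNA runs short, uncharged tRNA activates the kinase GCN2, and the transcription factor ATF4, which is then translated more, binds the genes of many cytosolic synthetases. *Gars* and *Kars* each encode both the cytosolic and the mitochondrial enzyme and were counted with the cytosolic class.

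Transcripts of the cytosolic synthetases were lower in B16F1-GFP-D, while those of the mitochondrial synthetases lay around the level of all genes. All 20 cytosolic genes were detected, and their median log2 ratio was -0.51, with -0.48 on array 1 and -0.52 on array 2. The 16 mitochondrial genes were also all detected and had a median of 0.023, with -0.023 on array 1 and 0.072 on array 2. The median of all detected genes was -0.0081. The difference of the class medians, cytosolic minus mitochondrial, was -0.54, with an SD between the arrays of 0.10. Both arrays put 13 of the 20 cytosolic genes lower and 4 of them higher, and the signs of the other 3 differed between the arrays. For comparison, 42.8% of all detected genes were lower and 41.0% were higher on both arrays. The mitochondrial class was even, with 7 genes lower on both arrays and 7 higher on both.

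**Figure D1:**
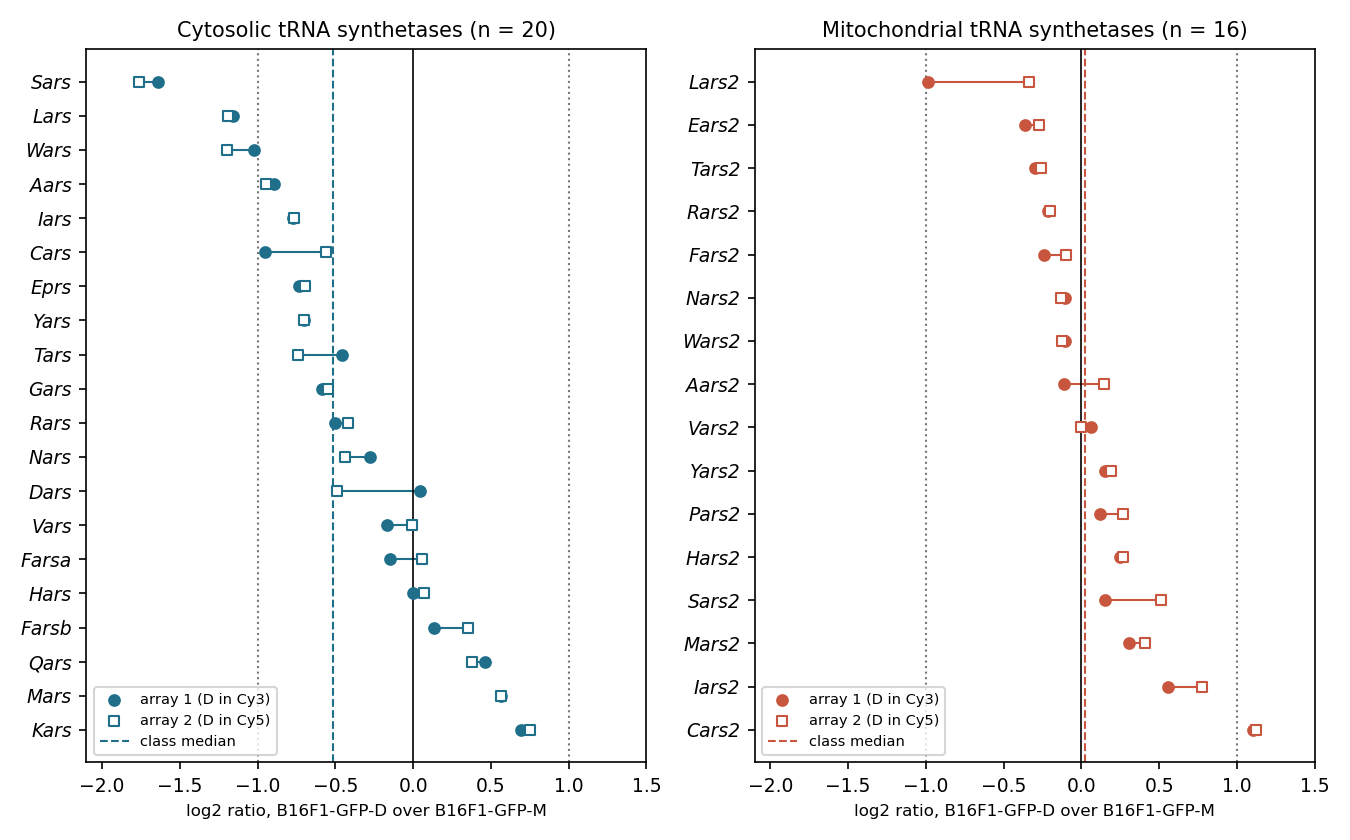
Log2 ratio of B16F1-GFP-D relative to B16F1-GFP-M (horizontal axis) for each of the 20 cytosolic and 16 mitochondrial synthetases (rows, ordered by their mean), with a filled circle for array 1, an open square for array 2 and a line joining them. Dashed lines mark the class medians of -0.51 and 0.023, and dotted lines mark 2-fold in either direction. *Sars*, *Lars* and *Wars* lie past 2-fold on the lower side on both arrays, and *Cars2* on the higher side.

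By the 2-fold rule, 3 of the 20 cytosolic genes were called lower, against 1.94% of all detected genes, and none was called higher, against 3.09%. Of the 16 mitochondrial genes, 1 was called higher and none was called lower. At 1.5-fold on both arrays, 7 cytosolic genes were lower and 1 was higher, where 7.02% and 8.77% of all detected genes were, and 0 mitochondrial genes were lower and 1 was higher. The classes overlapped. By the means of both arrays, 15 of the 16 mitochondrial genes lay above the cytosolic median and 8 cytosolic genes lay below the lowest mitochondrial gene, *Lars2*. The latter count was 3 on array 1 and 13 on array 2, since the arrays disagreed on *Lars2*. Ratios within the cytosolic class were also more spread, with an SD over its genes of 0.62, against 0.42 in the mitochondrial class. The classes differed in brightness, however. The dimmest cytosolic gene, *Rars*, had a mean log2 intensity of 8.87, and several mitochondrial genes were dimmer, down to 6.68 in *Hars2*. The background correction used draws ratios of dim spots towards 0, and its part in the spread and the calls was not tested.

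The lowest ratio of all was that of *Sars*, which encodes the seryl-tRNA synthetase. Its probe, on chromosome 3 from 108229539 to 108229598 of the mm9 genome, had a normalised log2 intensity of 13.63 in B16F1-GFP-D and 15.27 in B16F1-GFP-M on array 1, and of 13.63 and 15.39 on array 2. The log2 ratios were thus -1.64 and -1.76, with a mean of -1.70 and an SD of 0.08, and B16F1-GFP-D had 3.25-fold less of the transcript. *Lars*, the leucyl-tRNA synthetase, was next, with intensities of 11.47 against 12.63 on array 1 and 11.50 against 12.69 on array 2. Its ratios of -1.16 and -1.19 differed by little between the arrays (SD 0.02), and the transcript was 2.26-fold lower. *Wars*, the tryptophanyl-tRNA synthetase, had 11.56 against 12.58 and 11.60 against 12.80. Its ratios were -1.02 and -1.19, which makes it 2.16-fold lower, and on array 1 it lay just past 2-fold. That these 3 genes were lower on both arrays follows from the rule by which they were called, and adds no support.

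Most other cytosolic genes were also lower, by less than 2-fold. *Aars*, for alanine, had log2 ratios of -0.90 on array 1 and -0.95 on array 2, and *Iars*, for isoleucine, of -0.77 and -0.76. For *Cars*, the cysteinyl-tRNA synthetase, they were -0.95 and -0.56. *Eprs*, whose single protein charges both glutamate and proline tRNAs, had a mean of -0.71, and *Yars*, for tyrosine, had -0.70 on each array. These 5 genes and the 3 called ones had means below that of every mitochondrial synthetase, which on array 1 held for the 3 called genes only. *Tars*, for threonine, had -0.46 and -0.74, *Rars*, for arginine, -0.50 and -0.42, and *Nars*, for asparagine, -0.28 and -0.44. *Gars*, for glycine in both compartments, had a mean of -0.57. *Vars*, for valine, had -0.17 and -0.0096, a mean of -0.09 that is smaller than its SD of 0.11.

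The 4 cytosolic genes that were higher on both arrays were *Kars*, *Mars*, *Qars* and *Farsb*. *Kars*, for lysine in both compartments, had the highest ratio of the class, with 0.69 on array 1 and 0.75 on array 2, or 1.65-fold higher in B16F1-GFP-D. *Mars*, for methionine, had 0.57 on each array and *Qars*, for glutamine, a mean of 0.42. *Farsb*, the beta subunit of the phenylalanyl-tRNA synthetase, had a mean of 0.24, while *Farsa*, its alpha subunit, had -0.05, with opposite signs on the arrays. *Hars*, for histidine, had -0.0007 and 0.07. *Dars*, for aspartate, gave 0.04 on array 1 and -0.49 on array 2, and its arrays lay further apart than those of any other cytosolic gene.

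The medians within the cytosolic class varied with how the genes were grouped. Of 13 genes listed as ATF4-linked, 12 were lower on both arrays, the exception being *Mars*, and their median was -0.71. The other 7 genes (*Dars*, *Farsa*, *Farsb*, *Hars*, *Kars*, *Qars* and *Rars*) had a median of 0.03, with 1 lower on both arrays and 3 higher. That list was written with earlier results of these data known and gives no independent evidence. Synthetases fall into a pair of unrelated structural families. The 10 cytosolic genes of class I had a median of -0.71 and the 10 of class II one of -0.29, but the difference was -0.50 on array 1 and -0.16 on array 2. In the mitochondria these medians were 0.03 for 9 genes and 0.02 for 7. The 8 cytosolic enzymes of the multi-synthetase complex had a median of -0.34, with 4 lower on both arrays (*Eprs*, *Iars*, *Lars* and *Rars*) and 3 higher (*Kars*, *Mars* and *Qars*). For the 12 enzymes outside the complex the median was -0.58, with 9 lower on both arrays and 1 higher, and the complex lay above them by 0.29 on array 1 and by 0.10 on array 2. The genes of the complex therefore had no common direction.

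To set these directions beside the sequences of the genes, RefSeq promoter windows were searched on both strands for TGATGNAA, where N is any base, the core of the composite element through which C/EBP and ATF proteins bind genes of the amino acid response. Each window holds the 250 bases before the annotated start of a transcript and the first 50 after it. A window was given for 13 cytosolic and 14 mitochondrial genes. Those without one were *Cars*, *Hars*, *Lars*, *Nars*, *Rars*, *Vars*, *Wars*, *Hars2* and *Pars2*. The letters occurred in the windows of 5 of the 13 cytosolic genes (*Aars*, *Gars*, *Iars*, *Tars* and *Yars*), in 0 of 14 mitochondrial genes and in 4.51% of all 27025 genes with a window (3.97% of 32851 windows). The stretches below are printed because they hold a match in genes that were lower in B16F1-GFP-D. They are from GRCm38.p6, are written 5′ to 3′ along the strand of the gene, and carry the match in capitals, which in each of them reads as the reverse complement of the motif. For *Aars* (plus strand), *Gars* (plus strand) and *Tars* (minus strand) they end at the base before the start, and for *Iars* (plus strand) they are the first 30 transcribed bases.
Aars, chr8:111033692-111033841: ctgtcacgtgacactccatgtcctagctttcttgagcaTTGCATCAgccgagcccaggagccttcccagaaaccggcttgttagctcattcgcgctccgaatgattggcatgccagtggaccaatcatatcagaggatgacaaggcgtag
Gars, chr6:55037901-55038000: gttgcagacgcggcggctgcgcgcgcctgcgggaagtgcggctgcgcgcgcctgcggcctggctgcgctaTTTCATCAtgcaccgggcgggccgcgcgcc
Tars, chr15:11399659-11399758: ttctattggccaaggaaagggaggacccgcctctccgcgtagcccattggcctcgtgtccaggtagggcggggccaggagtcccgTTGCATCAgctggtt
Iars, chr13:49682130-49682159: gtcagtaTTGCATCAcctccagacgcggaa

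The matches lay at different distances from the start, at base -112 in *Aars*, -30 in *Gars* and -15 in *Tars*, and after the start in *Iars* and *Yars* and at a second place in *Aars*. All 5 genes with a match were lower on both arrays, with a median of -0.70 and a range from -0.92 to -0.57. The 8 cytosolic genes whose window held no match had a median of 0.10, but their range was wider and included *Sars* with -1.70, *Eprs* with -0.71 and *Kars* with 0.72. The 7 genes without a window, among them *Lars* and *Wars*, had a median of -0.46. A second motif, the E-box CACGTG, which does not overlap the first in these windows, was found for *Aars*, *Farsb*, *Iars* and *Tars*, for *Ears2* among the mitochondrial genes, and in 8.09% of all genes with a window (7.15% of windows). *Aars*, *Iars* and *Tars*, which also hold the first motif, were lower on both arrays, as was *Ears2* with -0.32, while *Farsb* had 0.24. A match of letters is a description and not a measured binding site, and a missing match says only that the letters are not in that window.

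Among the mitochondrial synthetases, *Cars2*, for cysteine, had the highest ratio. Its probe, on chromosome 8 from 11516152 to 11516211 of mm9, had a normalised log2 intensity of 9.88 in B16F1-GFP-D against 8.78 in B16F1-GFP-M on array 1, and of 9.98 against 8.86 on array 2. With log2 ratios of 1.10 and 1.12 (SD 0.01) the transcript was 2.16-fold higher in B16F1-GFP-D, and no other synthetase of either compartment was called higher. *Iars2*, for isoleucine, came next with 0.55 and 0.78, followed by *Mars2*, for methionine, with 0.30 and 0.41, and *Sars2*, for serine, with 0.15 and 0.51. *Hars2*, for histidine, had 0.25 and 0.27, but was well above background in B16F1-GFP-M on 1 of the 2 arrays only. *Pars2*, for proline, had a mean of 0.19, and *Yars2*, for tyrosine, had 0.15 and 0.19. These 7 genes are those of the class that were higher on both arrays.

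*Lars2*, for leucine, had the lowest ratio of the mitochondrial class and the least certain one of all members. Its probe was the brightest among the 36 genes, with a mean log2 intensity of 16.99, and the bearing of this on its ratio was not tested. The ratio was -0.99 on array 1 and -0.33 on array 2, with a mean of -0.66 and an SD of 0.46, the widest among the 36 genes. Both signs were negative, but the size was not settled by these arrays, and the mean was -0.18 with median centring in place of loess. *Ears2*, which charges mitochondrial tRNAs for both glutamate and glutamine with glutamate, had a mean of -0.32. *Tars2*, for threonine, had -0.30 and -0.26, *Rars2*, for arginine, -0.21 and -0.20, and *Fars2*, for phenylalanine, a mean of -0.17. *Nars2*, for asparagine, had -0.11 and -0.13 and *Wars2*, for tryptophan, -0.11 and -0.12. *Aars2*, for alanine, had -0.11 and 0.15 and *Vars2*, for valine, 0.06 and -0.0024, so neither had a settled direction. Over both classes, 6 genes had a mean ratio smaller than their own SD between the arrays, namely *Aars2*, *Dars*, *Farsa*, *Hars*, *Vars* and *Vars2*.

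For 13 amino acids there was a gene of each compartment, which allows a comparison within the amino acid. In 12 of these 13 pairs the mitochondrial enzyme had the higher log2 ratio on both arrays, and the median of the differences, mitochondrial minus cytosolic, was 0.51. The widest gap was that of serine, where *Sars2* lay above *Sars* by 1.79 on array 1 and 2.27 on array 2. Cysteine followed with 2.05 and 1.68 and isoleucine with 1.32 and 1.54, and these 3 pairs were apart by at least 1 on the log2 scale on both arrays. In all 3, and in tyrosine with a mean gap of 0.87, the forms lay on opposite sides of 0 on both arrays, the cytosolic transcript lower and the mitochondrial one higher in B16F1-GFP-D. Tryptophan (0.99) and alanine (0.94) had gaps of like size, but with a mitochondrial form close to 0. Leucine differed by 0.17 on array 1 and 0.86 on array 2, so that its gap rests on array 2. When the probes of a gene were combined by their median, the mitochondrial form was the higher in 11 pairs, valine being the further exception, and the median difference was 0.33. The gap of isoleucine was then 0.78, that of cysteine 1.49 and that of alanine 0.10. This median includes probes that were not detected, and over all probes *Aars* had -0.08 and *Iars* -0.37. Over detected probes only, an alternative chosen after seeing the data, they had -0.51 and -0.57.

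The smaller gaps were 0.32 for threonine, 0.25 for arginine, 0.24 for asparagine, 0.22 for histidine and 0.12 for valine, the last of which was below its SD of 0.16. Methionine was the exception: *Mars2* lay below *Mars* by 0.26 on array 1 and 0.15 on array 2, and both forms were higher in B16F1-GFP-D. Some enzymes have no partner of their own. *Eprs* was below both of its counterparts, by 0.39 for *Ears2* and 0.91 for *Pars2*, whereas *Fars2* lay below both subunits of the cytosolic enzyme, with differences of -0.13 from *Farsa* and -0.41 from *Farsb*.

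**Figure D2:**
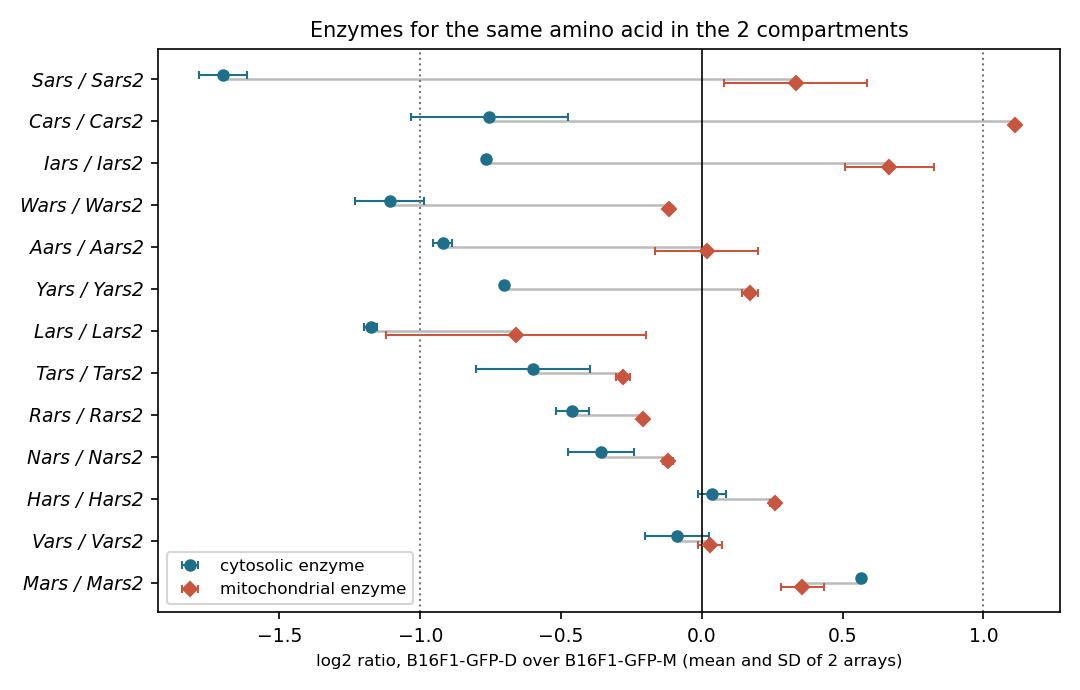
Mean log2 ratio of B16F1-GFP-D relative to B16F1-GFP-M (horizontal axis) for the cytosolic (circles) and mitochondrial (diamonds) enzyme of each of 13 amino acids (rows, ordered by the gap), with bars for the SD between 2 arrays. The diamond lies right of the circle in all rows but that of *Mars* and *Mars2*, and the gap reaches 2.03 for *Sars* and *Sars2*.

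Several genes had further probes, which served as a check on the brightest. Of 19 other detected probes of cytosolic genes, 16 had a mean of the same sign as the brightest probe, and the 3 others belonged to *Aars*, *Dars* and *Farsa*. Of the 6 other detected mitochondrial probes, 4 had the same sign, and those of *Vars2* and *Wars2* did not. The other probes of *Lars* had means of -0.99 and -0.72 and that of *Wars* had -0.93, so none of these was past 2-fold on both arrays, and *Sars* had a single probe. *Eprs* was measured by 4 probes, from -1.17 to -0.65, of which 1 was past 2-fold on both arrays. The second probe of *Cars2* had a mean of 0.56, which is of the same sign and smaller. *Iars* had a second detected probe with -0.37, *Iars2* one with 0.16 and *Tars* one with -0.10, all closer to 0 than the brightest. For *Aars*, the other probe of the same RefSeq transcript had -0.51, while a probe for another transcript had 0.11. When the median over all probes represented a gene, *Sars* alone was called among the 36 genes.

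Members that lie near each other in the genome differed widely in some cases and little in others. On chromosome 1 of mm9, the probe of *Iars2*, from 187111041 to 187111948, and that of *Eprs*, from 187244158 to 187248240, had means of 0.67 and -0.71. On chromosome 8, *Aars*, measured from 113579376 to 113579434, had -0.92 and *Kars*, from 114520409 to 114520468, had 0.72. Other neighbours lay closer together. On chromosome 18, *Hars*, from 36926985 to 36927794, had 0.03 and *Hars2*, from 36951913 to 36951972, had 0.26. On chromosome 17, *Vars*, from 35152339 to 35152398, had -0.09 and *Vars2*, from 35793590 to 35793732, had 0.03. Chromosomes 3, 13 and 17 had the lowest medians of all detected genes among those that carry members, with -0.15, -0.16 and -0.17. On chromosome 3, *Sars* lay far below that median, while *Tars2* with -0.28 and *Wars2* with -0.12 lay near it. On chromosome 13, *Iars* with -0.77 lay below the median and *Fars2* with -0.17 near it, and on chromosome 17 *Vars* with -0.09, *Aars2* with 0.02 and *Vars2* with 0.03 lay above it. Their part in the class medians was not tested.

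Genes of neighbouring steps, from lists written with earlier results of these data known, were read in the same way. The 3 scaffold genes of the multi-synthetase complex had no common direction, with a median of -0.10. Among them *Aimp2* had a mean of 0.46 and *Aimp1* one of -0.31. Of 4 partners of mitochondrial charging, all detected, none was called and the median was 0.02. *Mtfmt*, which formylates the initiator tRNA, had a mean of 0.24. *Gatb*, a subunit of the amidotransferase that turns glutamate on the glutamine tRNA into glutamine, had a mean of -0.17, with opposite signs on the arrays. Of 7 synthetase-like, editing and selenocysteine genes, 6 were detected, with a median of 0.03. *Aarsd1*, an editing factor for mischarged alanine tRNA, had 0.61 and *Prorsd1* had -0.57. The tRNA export receptor *Xpot* had -0.9996 on array 1 and -1.25 on array 2, just short of the threshold on array 1, and *Rpp38*, a protein of ribonuclease P, was called lower with -1.12 and -1.10. These were the lowest of 19 detected genes of tRNA maturation and export, whose median was -0.04, with 10 lower on both arrays and 8 higher. *Tsen34*, a subunit of the tRNA splicing endonuclease, had the highest ratio of that list with 0.79.

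The genes of sensing uncharged tRNA and of the response to it included the largest decreases in these lists. Of 18 genes, 17 were detected, and the median was -0.35. Of those detected, 6 were called lower, against 1.94% of all detected genes, and none was called higher, against 3.09%. All 6 called genes are outputs of the response, but neither the charging of tRNA nor the activity of GCN2 was measured. They were *Trib3*, a pseudokinase that binds ATF4, with a mean of -3.24, and *Ddit3*, the transcription factor CHOP, with -2.29. *Chac1*, which degrades glutathione, had -2.15, and *Ppp1r15a*, a subunit of the phosphatase of eIF2, had -1.93. *Asns*, the asparagine synthetase, had -1.53 and *Sesn2*, a leucine sensor, -1.36. The 11 other detected genes lay between -0.70 and 0.46, with 3 lower on both arrays and 7 higher. Of these, named after their values were seen, *Atf4* had -0.70, *Impact*, an inhibitor of GCN2 activation, -0.56, and *Eif2s2*, the beta subunit of eIF2, -0.35. *Eif2s1*, its alpha subunit, had 0.46 and *Eif2ak4*, which encodes GCN2, 0.24. Cytosolic elongation factors had a median of -0.02 over 7 detected genes, with *Eef1d* at 0.39 and *Eif5a* at 0.32, and none was called.

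**Figure D3:**
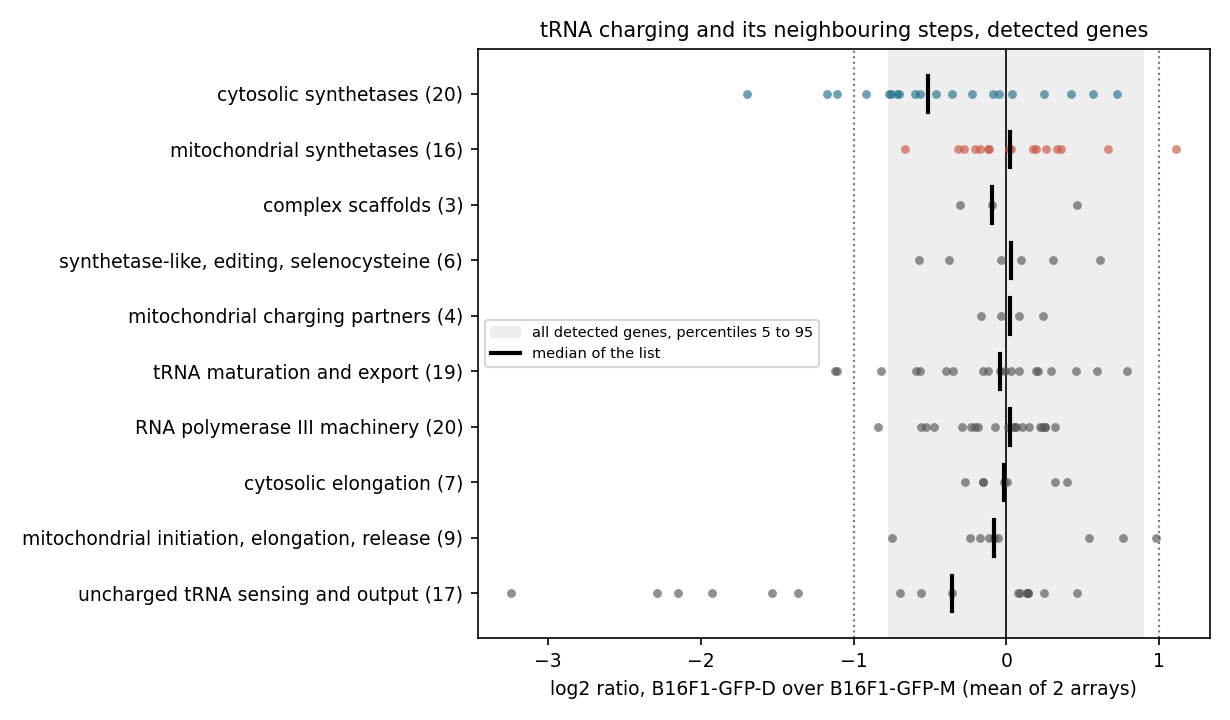
Mean log2 ratio of B16F1-GFP-D relative to B16F1-GFP-M over 2 arrays (horizontal axis) of each detected gene (dots) in 10 lists of tRNA charging and neighbouring steps (rows, with the number of detected genes), with a black bar at the median of each list. The grey band spans percentiles 5 to 95 of all detected genes, from -0.77 to 0.89. Cytosolic synthetases have the lowest median, -0.51, while the lowest single genes belong to uncharged tRNA sensing and output.

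The gap between the compartments kept its direction under all alternatives tried, while its size varied. Some of these alternatives leave the ratio of each gene unchanged. The cytosolic median lay between -0.59 with the scanner software's own ratio and -0.36 when the probes of a gene were combined by their median, and the mitochondrial median between -0.02 and 0.08. The calls were less steady than the medians. Median centring, which does not remove dye effects that vary with brightness, left no called synthetase, although *Sars* then still had a mean of -1.36 and *Cars2* one of 1.19. The offset in the background correction draws ratios of dim spots towards 0. With an offset of 0, *Mars2* had 0.57 and *Hars2* 0.59, more than with the offset of 50, but the mitochondrial median was still 0.02. Leaving out *Gars* and *Kars*, which serve both compartments, gave a cytosolic median of -0.53.

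**Figure D4:**
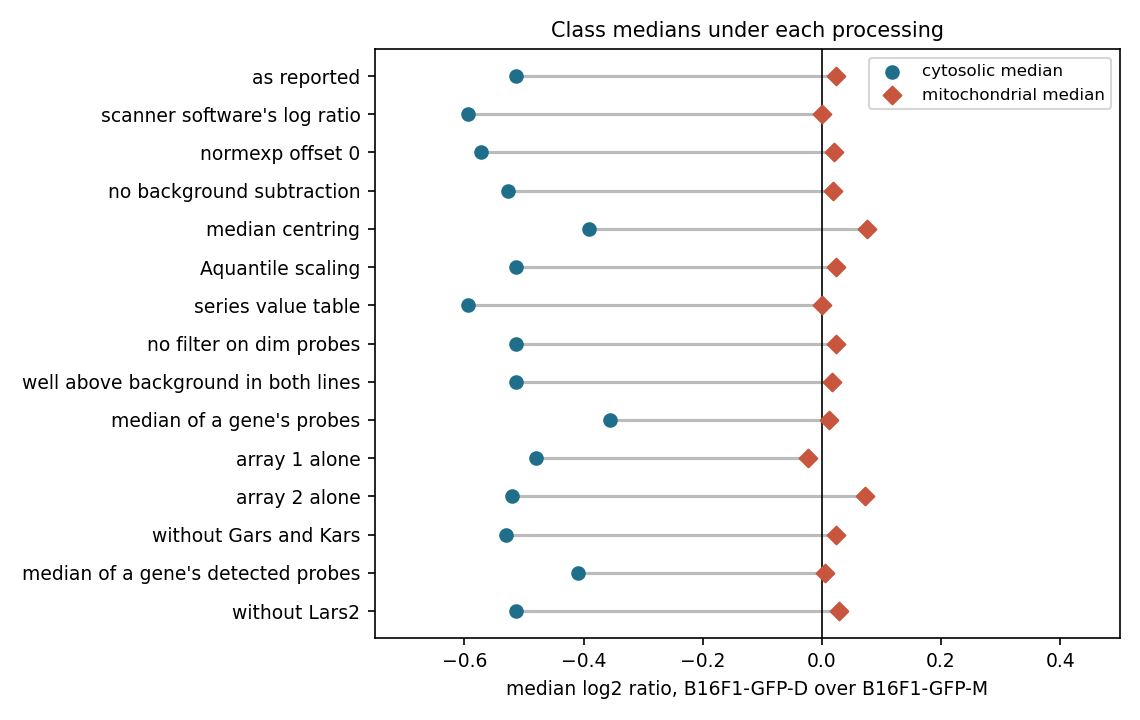
Median log2 ratio of B16F1-GFP-D relative to B16F1-GFP-M (horizontal axis) of the cytosolic (circles) and mitochondrial (diamonds) synthetases under each processing (rows). The cytosolic median is below the mitochondrial one in every row, and the smallest difference is -0.37, where the probes of a gene were combined by their median.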

How the data were processed

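RNA of the lines B16F1-GFP-M and B16F1-GFP-D was hybridised to 2 arrays with exchanged dyes. The deposited intensity of each spot, and that of the background around it, comes from the authors' use of Agilent Feature Extraction version 10.7.3.1, and is not normalized. The deposited log10 ratios of Cy5 over Cy3 come from that software's own background subtraction and dye scaling and were used as an alternative, as was the series value table. Gene names, positions (mm9) and the flags for outliers and signal above background are other columns deposited by the authors.

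In R 4.3.3 with limma 3.58.1, mean signals were corrected by normexp (offset 50) followed by within-array loess normalization, with control spots and outliers at weight 0, and ratios were turned to log2 of B16F1-GFP-D relative to B16F1-GFP-M. Normalised intensities of each line are the loess values of its channel. Current symbols came from RefSeq accessions (27198 of 28075 probes matched), used for names only. Well above background were 44.1% and 56.1% of spots for B16F1-GFP-D on arrays 1 and 2 and 60.7% and 45.0% for B16F1-GFP-M, and no spot was saturated. Named were all members, and of each neighbouring list the called genes and the 2 largest ratios in size. Members and lists were chosen with earlier results of these data known. Promoter windows were taken from RefSeq (GRCm38.p6). Tables and plots used Python 3.11.15, pandas 2.3.3 and matplotlib 3.10.9. A further gene is not reported here.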

Additional observations from a re-analysis of the deposited data

How the results depend on the processing

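The cytosolic median was -0.59 both with the ratio of the scanner software and with the series value table, -0.57 with an offset of 0, -0.48 with array 1 alone, -0.39 with median centring, -0.36 when all probes of a gene were combined by their median and -0.41 with the median of its detected probes, an alternative chosen after seeing the data. The difference of the class medians was -0.37 and -0.41 in the latter pair of alternatives. Called lower were 7 cytosolic genes at 1.5-fold, 1 at 3-fold, 0 with median centring, and 1 with the median of all or of the detected probes, against 3. Called higher was 1 cytosolic gene at 1.5-fold, against 0, and 0 mitochondrial genes at 3-fold, with median centring and with the median of all or of the detected probes, against 1. The causes were not tested. Over all genes, 387 were called higher and 243 lower, against 45 and 19 with median centring and 759 and 597 with the ratio of the scanner software.

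No called gene changed sign, which the 2-fold rule on both arrays made unlikely beforehand. Of the 36 genes, 29 kept the sign of their mean in the 12 alternatives that give single genes, and 7 did not (*Aars2*, *Dars*, *Farsa*, *Hars*, *Nars2*, *Vars* and *Vars2*). Some of the 12 could not change a sign, because they leave the ratio of each gene as it was. These are the scaling of intensities between arrays, no filter on dim probes, and a filter that required signal in both lines. The use of a single array can change the sign only of genes whose arrays differ in sign. It had to do so for those genes, which were *Aars2*, *Dars*, *Farsa*, *Hars* and *Vars2*. The series value table nearly repeats the ratio of the scanner software. Leaving out *Lars2*, chosen after seeing the data, gave a mitochondrial median of 0.03. No paired analysis was possible because there was 1 replicate per line. The number of arrays limits the precision, and dim genes such as *Hars2* are limited by signal over background.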

Other observations

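Transcription of tRNA genes and mitochondrial translation showed no common direction. Of 21 genes of the RNA polymerase III machinery, 20 were detected and none was called, with a median log2 ratio of 0.02. *Polr3gl*, a subunit that has a paralogue in *Polr3g*, had the lowest ratio with -0.80 on array 1 and -0.89 on array 2, and *Polr3c*, another subunit, had a mean of -0.56. In this list 9 genes were lower on both arrays and 7 higher.

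The 9 factors of mitochondrial initiation, elongation and release were all detected, with a median of -0.08 and none called. Within this list the values were far apart. *Gfm1*, the mitochondrial elongation factor G, had 0.88 and 1.08, so that it was past 2-fold on array 2 only, and *Tsfm*, which recycles the elongation factor Tu, had 0.83 and 0.70. The remaining 6 genes apart from *Tufm*, which had 0.54 and was named after its value was seen, were lower on both arrays, and *Mrrf*, which recycles ribosomes, had a mean of -0.75.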
